A study of Mus musculus with 2 samples.

Results

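The regions described here are the narrowest of those over which the study gave H3K9me2 signal. They are all regions on chromosomes 1 to 19 whose end lay at most 300 bp beyond their start in the authors' table. There were 3289 of them among 23339 autosomal regions (14.1%), and they are called narrow regions here. The rule used width and chromosome only and no H3K9me2 signal, but it was set with earlier results of these data known. The sources used here do not give how the regions were obtained, so whether the signal shaped their widths is not known. The remaining 20050 autosomal regions, with a median width of 1279 bp, served for comparison.

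Dimethylation of lysine 9 on histone H3 (H3K9me2) was measured by chromatin immunoprecipitation and sequencing in mouse MC1-ZE7 embryonic stem (ES) cells, a line of the 129S6/SvEvTac strain that carries the green fluorescent reporter Emerald. The 1 Emerald-negative and the 1 Emerald-positive library (the high fraction) came from cells sorted by Emerald fluorescence, which the series describes as Zscan4 negative and positive. Both populations were grown without feeders on gelatin in serum medium with leukemia inhibitory factor, and the precipitation used the antibody ab1220. The sources used here do not name the promoter that drives Emerald, no expression was measured in these libraries, and ES cell identity was not checked here because no gene names accompany the regions. With 1 library per population no test between populations was possible, no p-value is given, and every interval below is a 95% interval for counting error alone.

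H3K9me2 is placed mainly by the methyltransferases G9a and GLP and is removed by demethylases of the KDM3 family. It usually covers broad domains of silent chromatin, often towards the nuclear periphery, and is depleted around the promoters of active genes. Zscan4 genes encode zinc finger proteins that are expressed in short bursts by a small share of ES cells.

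Each region is represented by a 10 kb window around its midpoint, divided into 50 bins of 200 bp, with a scaled signal per bin in each library. A window is therefore much wider than the narrow region at its centre. A signal step of 1.12 in the Emerald-positive library and 0.902 in the Emerald-negative one turned the values into whole reads, which give the counting error. The windows of the narrow regions held 28643 reads of the Emerald-positive and 35376 reads of the Emerald-negative library. In the Emerald-positive library 86.5% of their bins held no read, and in the Emerald-negative library 84.0%. Windows of neighbouring regions overlap and share reads, so intervals on sums over regions are narrower than the true counting error.

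The widths of the narrow regions were not spread evenly. They ran from 214 to 300 bp with a median of 239 bp, and 1100 of the regions (33.4%) had exactly 1 of a pair of widths. The smallest width in the table, 214 bp, was held by 402 regions (12.2%). A width of 228 bp was held by 698 regions (21.2%) and was the most frequent width of all autosomal regions. Between these values each width was held by 3 to 12 regions, and above 228 bp each width up to the limit was held by 12 to 62. No step in number was seen at the limit itself, with 24 regions of exactly 300 bp and 25 regions that were 1 bp wider. On the X and Y chromosomes, 89 of 607 regions were as narrow, and these are not counted among the narrow regions.

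**Figure D1:**
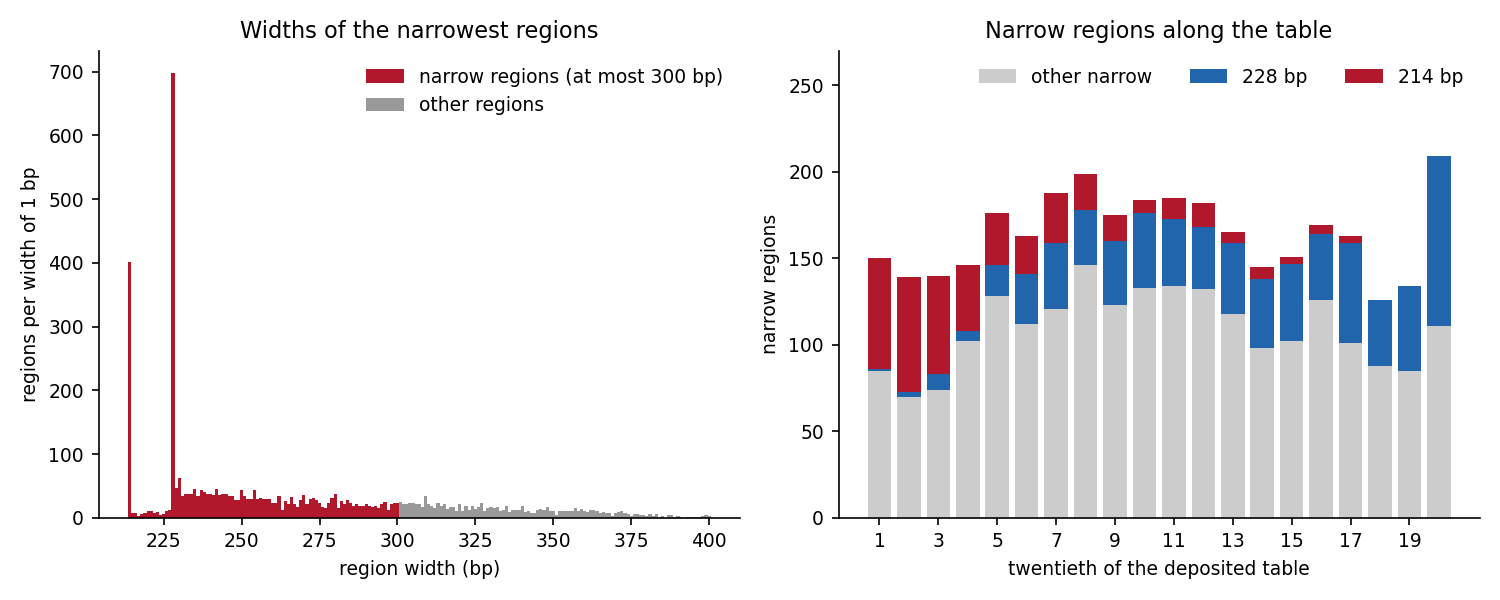
The left part counts regions by width in bp, with narrow regions and the next wider ones in different colours, and the right part shows how many narrow regions fall into each of 20 equal parts of the table, split by width. Widths of 214 and 228 bp stand out with 402 and 698 regions, against at most 62 for any other narrow width, and the former are most frequent early and the latter late in the table.

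Values on either side of the limit overlapped. The first 3 regions of 300 bp in chromosomal order lay on chromosome 1 (74617749 to 74618049 and 145586173 to 145586473) and on chromosome 10 (46539419 to 46539719), in mm9 coordinates as deposited. They held 10, 7 and 20 reads in the Emerald-positive and 3, 4 and 14 reads in the Emerald-negative library. The first 3 regions wider by 1 bp lay on chromosome 1 (54440657 to 54440958 and 90536254 to 90536555) and chromosome 10 (11542804 to 11543105). These held 5, 17 and 21 reads in the Emerald-positive library and 19 reads each in the Emerald-negative library. At the other end, the first 3 regions of 214 bp, all on chromosome 1, held 2, 16 and 18 reads in the Emerald-positive and 2, 10 and 17 reads in the Emerald-negative library.

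The narrow regions carried slightly less H3K9me2 signal per window than the other regions, by about the same factor in both libraries. In the Emerald-positive library the median narrow region had 6 reads (quartiles 3 and 11), and the median other region had 7. In the Emerald-negative library the median was 8 reads (quartiles 4 and 14) for narrow regions and 9 for other regions. The mean was 8.71 reads (8.61 to 8.81) in narrow windows against 9.35 in other windows of the Emerald-positive library. In the Emerald-negative library it was 10.8 reads (10.6 to 10.9) against 11.5. The ratio of these means was 0.932 (0.920 to 0.943) in the Emerald-positive and 0.934 (0.924 to 0.945) in the Emerald-negative library. Against regions above 300 and up to 400 bp alone the direction turned, with ratios of 1.037 and 1.042. On the authors' scale the mean window sum of the narrow regions was 9.75 in the Emerald-positive library and 9.68 in the Emerald-negative one.

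Windows with few reads were over-represented among the narrow regions. When all autosomal regions were ranked by their reads over both libraries and divided into 10 groups of equal size, narrow regions formed 18.8% of the lowest group, whose median was 4 reads. Their share was 16.4% in the next group and lay between 12.1% and 14.8% in the remaining 8. No read in at least 1 library was found at 125 narrow regions (3.80%), against 2.85% of all autosomal regions and 2.69% of the others. A count of 0 allows up to 3 reads at this depth. At the upper end, 19 narrow regions (0.578%) held more than 100 reads over both libraries, near the 0.536% of all autosomal regions, and these supplied 8.65% of all reads in narrow windows.

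Narrow regions lay closer to other regions than wider ones did. The median distance between the midpoint of a narrow region and that of its nearest region was 5343 bp, against 12217.5 bp for the other regions. Within 10 kb a neighbour was found for 2099 narrow regions (63.8%, 62.1 to 65.5), against 46.8% of all autosomal regions and 44.0% of the others. No gap between regions was under 500 bp, so wide regions cannot have a close midpoint and part of this difference is set by width. Measured from edge to edge, a neighbour lay within 10 kb of 65.3% of narrow regions and 47.5% of the others. The nearest neighbours of narrow regions were themselves short, with a median width of 331 bp against 1076 bp for those of the other regions. Of the 2099 regions with a neighbour within 10 kb, 873 (41.6%) had another narrow region as the nearest, while this held for 16.1% of the other regions with such a neighbour. Regions just wider than the limit, up to 400 bp, were also closely spaced: 69.8% of these had a neighbour within 10 kb, with a median distance of 3777.5 bp, so close spacing was not particular to the limit of 300 bp.

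The difference in mean level was not seen among regions with the same kind of neighbourhood, but a small difference in medians remained. With a neighbour within 10 kb, narrow regions averaged 7.62 reads in the Emerald-positive and 9.44 reads in the Emerald-negative library, and the 8817 other regions of this kind averaged 7.70 and 9.57. These gave ratios of 0.990 and 0.986. Without such a neighbour, the 1190 narrow regions averaged 10.6 and 13.1 reads, and 11233 other regions averaged 10.6 and 13.0, with ratios of 0.998 and 1.003. Over both libraries, the median narrow region held 12 reads with a neighbour and 18 without, against 13 and 19 for other regions. Means with a neighbour include heavily read windows, with up to 477 Emerald-positive reads in narrow and 498 in other regions. In both kinds of region, windows near another region therefore held fewer reads than isolated windows, and narrow regions more often had a neighbour.

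**Figure D2:**
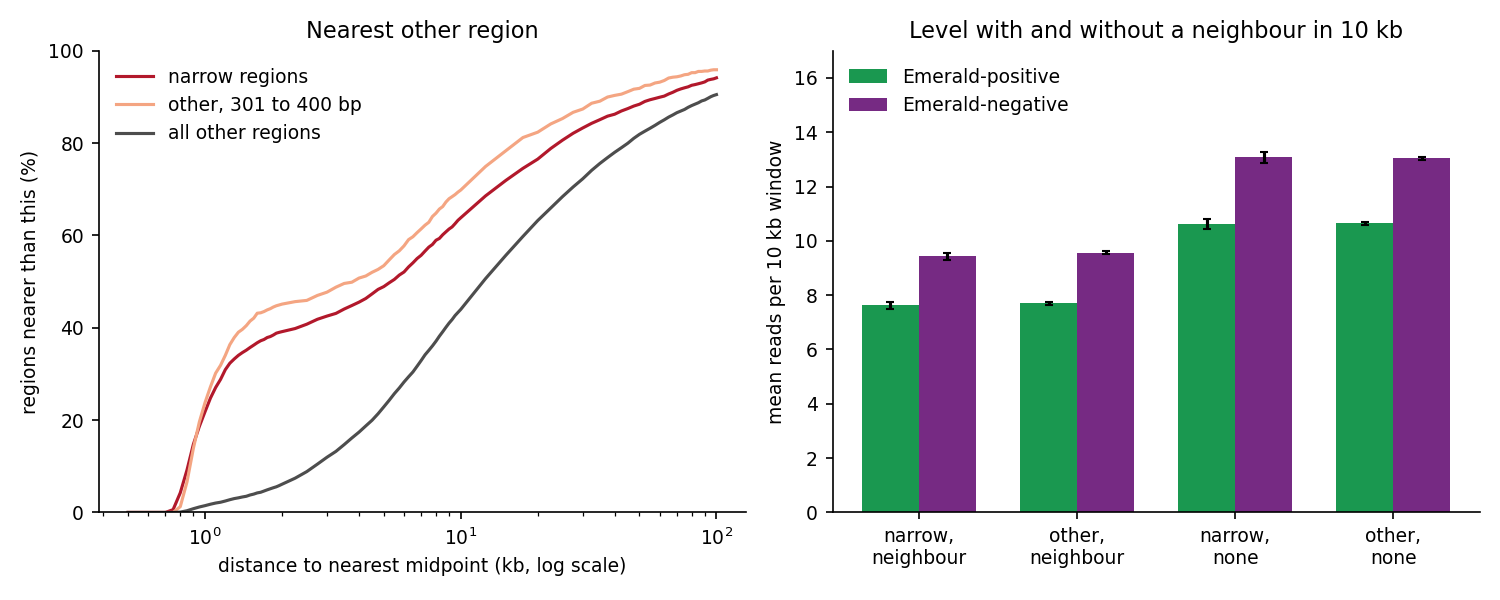
The left part gives the cumulative share of regions in percent against the distance to the nearest other midpoint in kb on a log axis for narrow regions, regions just above the limit and all others, and the right part gives mean reads per window by library with and without a neighbour within 10 kb (error bars, 95% Poisson intervals). Narrow regions reach 63.8% at 10 kb and other regions 44.0%, while the bars of narrow and other regions stand at nearly the same height within each kind.

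Over the 50 bins, the signal of the narrow regions dipped at the midpoint and rose towards both ends of the window. In the Emerald-positive library the mean was 0.143 per bin within 1 kb of the midpoint and 0.208 beyond, and in the Emerald-negative library it was 0.134 and 0.209. The ratio of centre to flank was thus 0.688 (0.666 to 0.711) in the Emerald-positive and 0.643 (0.624 to 0.663) in the Emerald-negative library. For the other regions these ratios were 0.696 and 0.669. The depth of the dip thus differed little from that of wider regions, by a factor of 0.988 (0.954 to 1.02) in the Emerald-positive and 0.961 (0.930 to 0.992) in the Emerald-negative library. These factors were 1.09 and 1.022 with the central 4 bins, and 1.115 and 1.066 for isolated regions, so their direction depended on these choices. No read in the central 10 bins of either library was found at 1046 narrow regions (31.8%), against 25.4% of all autosomal regions.

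The lowest bin of the narrow regions did not lie at the midpoint itself. In both libraries it was centred 300 bp towards higher coordinates, with a mean signal of 0.107 (0.0955 to 0.120) in the Emerald-positive library and 0.111 (0.101 to 0.122) in the Emerald-negative one. The intervals of the bin at 500 bp on this side overlapped these, at 0.113 (0.101 to 0.126) and 0.119 (0.108 to 0.1305). The mirror bin, 300 bp towards lower coordinates, stood at 0.153 (0.139 to 0.168) and 0.140. In the other regions these bins were closer, at 0.132 and 0.139 in the Emerald-positive library and 0.125 and 0.136 in the Emerald-negative one. They were also closer in the 2189 narrow regions of widths other than 214 and 228 bp, at 0.0906 and 0.109 in the Emerald-positive library. In the Emerald-negative library these regions stood at 0.0892 and 0.110, and their lowest bin was centred at 100 bp, at 0.0855.

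The dip had a different reach in narrow regions. Relative to the mean signal 3 to 5 kb from the midpoint, narrow regions stood at 0.646 in the Emerald-positive library and 0.560 in the Emerald-negative one within 200 bp of it. The other regions stood at 0.577 and 0.575 there. From 400 to 1000 bp the narrow regions were at 0.676 and 0.626, lower than the 0.746 and 0.707 of the others. At 1 to 2 kb they were at 0.834 and 0.818, and the others at 0.933 and 0.922. Narrow regions reached 0.965 and 0.914 at 2 to 3 kb, where the others had 0.985 and 0.986. Over all narrow regions the dip was therefore wider than that of the others at 400 bp to 3 kb. This did not hold for every subset at every distance: at 400 to 1000 bp, isolated narrow regions stood at 0.753 and 0.682, near the 0.728 and 0.686 of isolated others, and the 214 bp regions stood at 0.932 and 0.880. At 1 to 2 kb isolated narrow regions were lower, at 0.866 and 0.883 against 0.918 and 0.906 of isolated others. At 2 to 3 kb the values were 0.973 and 0.883 against 0.981 and 0.983.

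**Figure D3:**
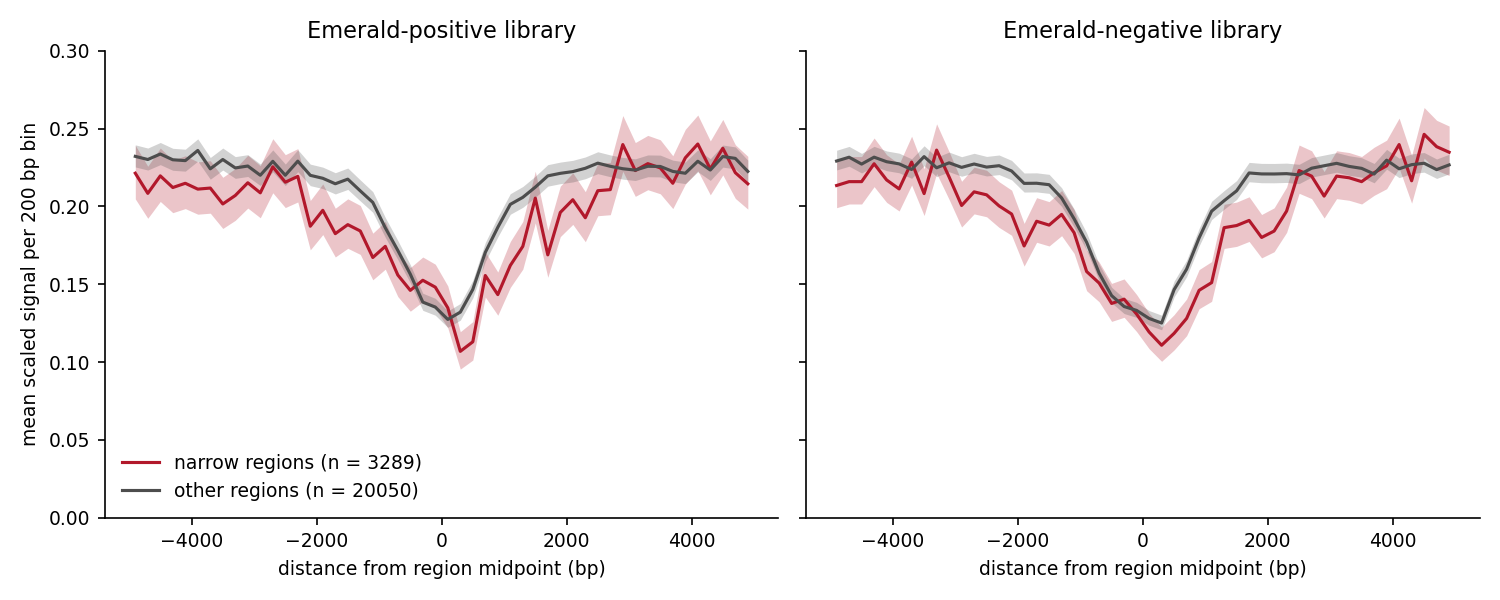
Mean scaled signal per 200 bp bin is plotted against distance from the midpoint for narrow and other regions in each library, with shaded 95% Poisson bands for counting error. Both sets dip at the midpoint, and the narrow regions rise again more slowly, from a centre mean of 0.143 to a flank mean of 0.208 in the Emerald-positive library.

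Where another midpoint lay within 2 kb, the dip was deeper on that side, in narrow and in other regions. Among the 1288 narrow regions with another midpoint within 2 kb, the signal at 400 to 1000 bp was 0.0841 per bin towards the neighbour and 0.143 away from it in the Emerald-positive library. In the Emerald-negative library it was 0.0701 towards and 0.138 away. At 1 to 2 kb the values were 0.132 towards and 0.188 away in the Emerald-positive library, and 0.118 and 0.177 in the Emerald-negative library. At 3 to 4 kb the sides were nearly equal, at 0.215 and 0.205 in the first library and 0.209 on both sides in the second. Isolated narrow regions had a shallower dip, with centre-to-flank ratios of 0.767 in the Emerald-positive library and 0.698 in the Emerald-negative one, against 0.688 and 0.655 for isolated other regions. With a neighbour within 10 kb the order turned: narrow regions were at 0.627 and 0.601, and other regions at 0.711 and 0.695.

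Narrow regions of 228 bp or less had shallower dips than those above 228 bp. Regions of 228 bp averaged 8.64 reads in the Emerald-positive and 10.6 reads in the Emerald-negative library, with centre-to-flank ratios of 0.755 (0.705 to 0.809) and 0.716 (0.672 to 0.763). The 2189 narrow regions of all other widths averaged 7.95 and 9.80 reads and had deeper dips, at 0.596 (0.570 to 0.623) and 0.559 (0.537 to 0.582). Among those, the 101 regions between 214 and 228 bp were like the 228 bp regions, with ratios of 0.754 (0.634 to 0.896) and 0.748 (0.642 to 0.872), so a shallow dip was not particular to the frequent widths. Within 200 bp of the midpoint, the signal over that beyond 1 kb was 0.950 and 0.860 at 228 bp. The profile of these regions thus rose again at the centre. At 214 bp this central value was 0.967 and 0.707, and between 214 and 228 bp it was 0.714 and 0.617. For the 2189 regions, which include the 101 between 214 and 228 bp, it was 0.510 and 0.483. Without regions over 100 reads the central values were 0.803 and 0.763 at 228 bp and 0.761 and 0.477 at 214 bp.

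The mean level of the 214 bp regions was the highest of these width classes, and this rested on a few windows. They averaged 13.0 reads in the Emerald-positive and 16.2 reads in the Emerald-negative library, while their median over both libraries was 15 reads. Of the 19 narrow regions over 100 reads, 10 had this width and 5 had a width of 228 bp, and those 10 held 31.4% of the reads in windows of 214 bp regions. Their centre-to-flank ratios were 0.937 (0.874 to 1.00) and 0.852 (0.799 to 0.908). Without the 10 regions the means were 9.24 and 11.3 reads, below the 9.55 and 12.2 reads of the 101 regions between 214 and 228 bp, whose median over both libraries was 18 reads. Without them the ratios 0.753 and 0.698, against 0.695 and 0.672 for 228 bp regions with the same limit on reads. Narrow regions above 228 and up to 250 bp had lower ratios, 0.529 and 0.489.

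**Figure D4:**
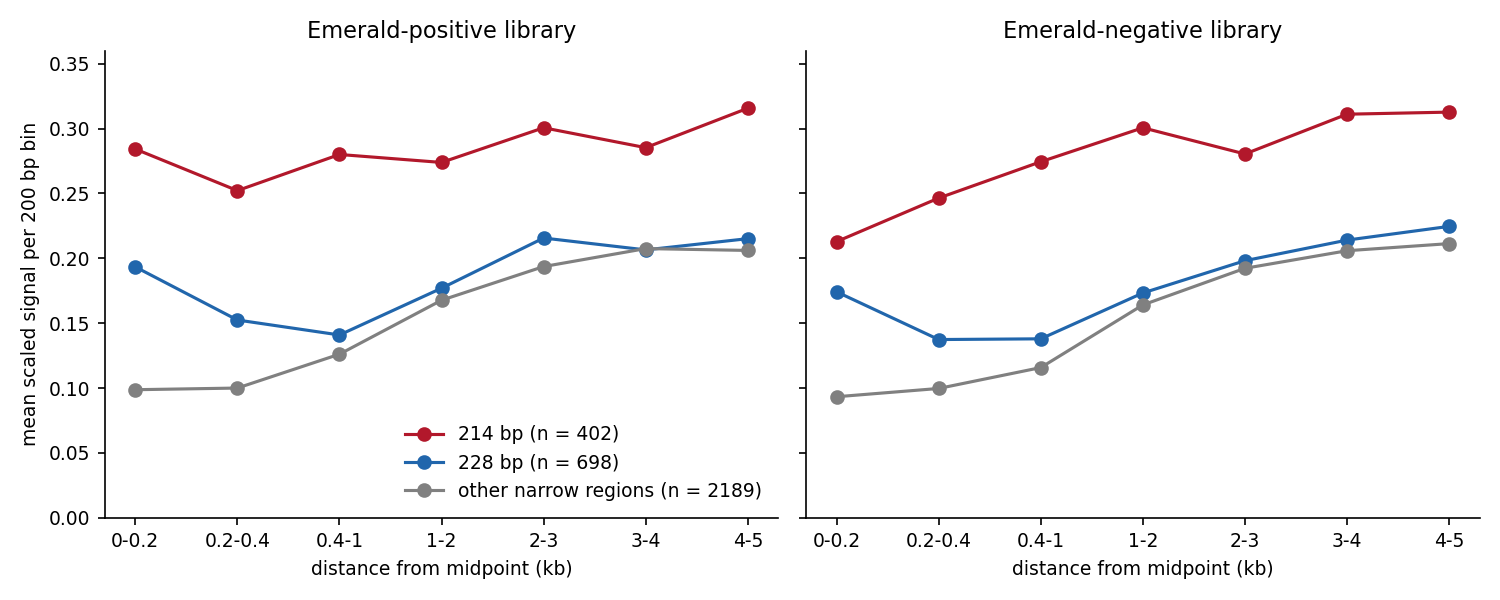
Mean scaled signal per 200 bp bin (y axis) is given by distance from the midpoint in kb (x axis) for regions of 214 bp (402), 228 bp (698) and the remaining narrow regions (2189), in each library. The remaining regions dip towards the midpoint, the 228 bp regions rise again within 0.2 kb of it, and the 214 bp regions have the highest mean in each distance class.

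A signal concentrated at the midpoint was found at single regions. Among 1150 narrow regions with at least 20 reads over both libraries, the median centre-to-flank ratio was 0.632 (quartiles 0.344 and 0.960), and the same median was found for 8037 other regions. The ratio exceeded 1 at 252 of them (21.9%, against 23.6% of the others) and exceeded 2 at 38 (3.30%, against 3.38%). The latter were unevenly spread over widths, with 16 of 259 regions of 228 bp (6.18%), 7 of 170 regions of 214 bp (4.12%) and 15 of 721 regions of the remaining widths (2.08%). Of the 5 narrow regions with the highest ratio, 4 had a width of 228 bp.

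The most concentrated region lay on chromosome 12 (70462654 to 70462920). It held 43 reads in the Emerald-positive library, 41 of them within 1 kb of the midpoint, and 47 reads in the Emerald-negative library, of which 43 lay there. A region of 228 bp on chromosome 8 (86280799 to 86281027) held 91 Emerald-positive and 85 Emerald-negative reads, with 78 and 75 of them within 1 kb, and its pooled centre-to-flank ratio was 26.6. All of these central reads lay within 400 bp of the midpoint. The other 3 regions lay on chromosome 7 (117202976 to 117203204), chromosome 13 (9833484 to 9833712) and chromosome 5 (89965130 to 89965358), with ratios of 17.7, 14.7 and 10.4. These concentrations were present in both libraries, and the counting interval of the ratio between libraries included 1 at each of the 5 regions.

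The narrow windows with the most reads lay on chromosome 8. A region of 214 bp (20007186 to 20007400) held 477 reads in the Emerald-positive and 650 reads in the Emerald-negative library, a scaled ratio of 0.912-fold (0.808 to 1.03). A second region of the same width (20001907 to 20002121) held 446 and 632 reads, or 0.877-fold (0.775 to 0.991). Their midpoints lay 5279 bp apart, so the pair shares reads and does not make independent observations. The next were a region of 250 bp on chromosome 11 (3023741 to 3023991) with 190 and 239 reads and a region of 265 bp on chromosome 4 (145230744 to 145231009) with 132 and 164 reads, at 0.988-fold and 1.00-fold. In both of these windows the reads lay away from the midpoint, with centre-to-flank ratios of 0.175 and 0.401. The last of these 5, a region of 214 bp on chromosome 2 (181653284 to 181653498), held 135 and 138 reads, or 1.22-fold (0.952 to 1.55), and was concentrated at the midpoint with a ratio of 5.41. Of the 19 narrow regions over 100 reads, 7 lay on chromosome 4 between 145107393 and 146792347 and 4 on chromosome 13. Those on chromosome 4 starting at 146791288 and 146792119 had midpoints 831 bp apart and share reads. How the other regions over 100 reads spread over chromosomes was not counted, so this placement is not shown to be particular to narrow regions.

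Between the populations, the summed signal of the narrow regions was nearly equal. The scaled mean was 9.75 in the Emerald-positive library and 9.68 in the Emerald-negative one, a ratio of 1.007-fold (0.992 to 1.02), or 0.011 on the log2 scale, beside 0.015 for the other regions. The authors scaled each library by 1 constant, so a uniform gain or loss of H3K9me2 over the whole genome would leave this value as it is. Per region, ratios were taken as log2((Emerald-positive + 0.036)/(Emerald-negative + 0.036)) of the mean signal per bin over 3164 narrow regions with a read in both libraries. Their median was 0.040 (quartiles -0.39 and 0.44), and that of the other regions was -0.0046. Across narrow regions the log2(reads + 1) of the libraries correlated with Pearson's r of 0.749 and Spearman's rho of 0.766, and regions with shared reads are not independent points.

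**Figure D5:**
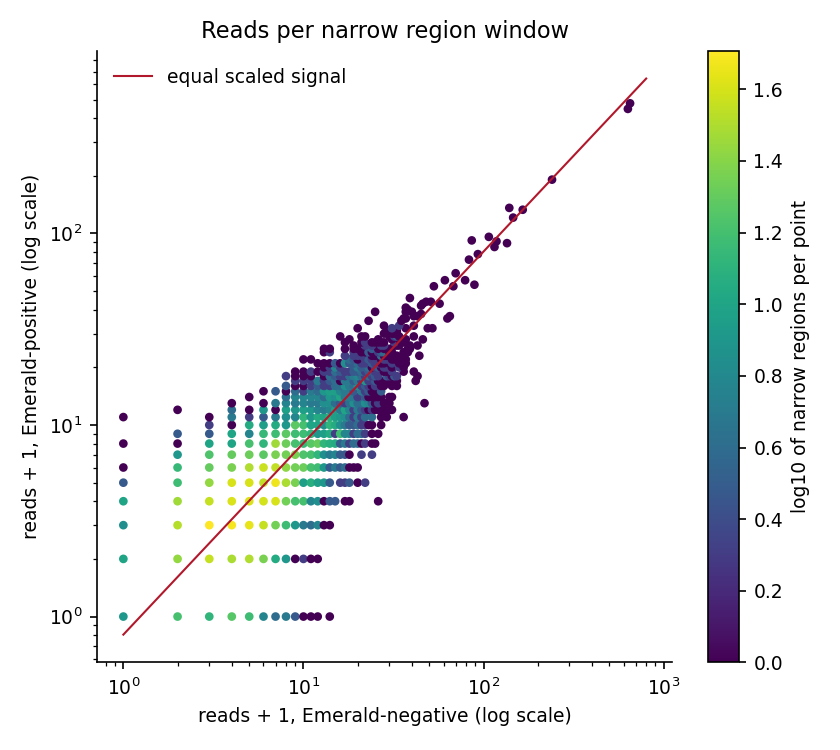
Each point is a pair of read counts, coloured by the log10 number of narrow regions that have it, with reads + 1 per 10 kb window of the Emerald-negative library on the x axis and of the Emerald-positive library on the y axis, both on log axes, and the line marks equal scaled signal. Points scatter around the line over the whole range, from windows with no read to those with 477 and 650 reads.

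Large differences between the libraries were about as frequent at narrow regions as elsewhere. The signal was at least 2-fold higher in the Emerald-positive library at 190 narrow regions (6.01%), against 5.39% of all autosomal regions and 5.28% of the others. It was at least 2-fold lower at 158 (4.99%), against 5.46% of all and 5.53% of the others. These counts followed the pseudocount, with 262 higher and 254 lower at the 1st percentile of region means and 43 and 47 at the 25th. At 46 narrow regions the counting interval lay wholly above the ratio pooled over all autosomal regions (1.45%), against 1.72% of all and 1.77% of the others. It lay below that ratio at 40 (1.26%), against 1.39% of all and 1.41% of the others. These shares lay near those of all regions.

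Extreme ratios among narrow regions above their median signal rested on few reads. The highest ratio was found on chromosome 9 (8017650 to 8017915), where 12 Emerald-positive stood against 3 Emerald-negative reads, or 4.98-fold (1.34 to 27.5). The next 4 each held 11 and 3 reads, or 4.56-fold (1.21 to 25.5), and lay on chromosome 1 (145587012 to 145587296), chromosome 17 (47668638 to 47668866) and chromosome 2 (26865496 to 26865727 and 115548895 to 115549172). In 3 of these 5 windows the central 10 bins held no read of either library, so the reads came from more than 1 kb away. The lowest ratio was found on chromosome 19 (54018752 to 54018989), where 3 stood against 25 reads, and here too no read lay in the central 10 bins. At 45592094 to 45592340 on chromosome 17 the reads were 2 and 13, or 0.191-fold (0.0210 to 0.846). On chromosome 6 (100285706 to 100285965) there were 3 reads against 17, or 0.220-fold (0.0412 to 0.759). The last 2, on chromosome 9 (70220851 to 70221142) and chromosome 14 (54058231 to 54058445), each held 4 reads against 21, or 0.237-fold (0.0592 to 0.703). All 10 intervals excluded 1, as the choice of extremes favours.

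The dip at the midpoint was slightly shallower in Emerald-positive than in Emerald-negative cells. Between the libraries the centre-to-flank ratio differed by a log2 of 0.097 (0.033 to 0.16) for narrow regions and 0.056 (0.031 to 0.081) for the others, and the intervals overlap. By distance, the log2 ratio of the libraries was 0.18 (0.040 to 0.31) within 200 bp, 0.046 (-0.094 to 0.19) at 200 to 400 bp and 0.082 (0.0061 to 0.16) at 400 to 1000 bp. It was -0.00058 (-0.053 to 0.051) at 1 to 2 kb and 0.049 (0.00033 to 0.098) at 2 to 3 kb. Farther out it was -0.024 (-0.072 to 0.023) at 3 to 4 kb and -0.033 (-0.080 to 0.014) at 4 to 5 kb. The value within 200 bp was 0.42 (0.12 to 0.71) for the 214 bp regions, and for the 2189 regions of other widths it was 0.081 (-0.12 to 0.28), which includes 0. The difference in centre-to-flank ratio was above 0 on 13 of 19 chromosomes. With 1 library each, a difference between the populations and one between the preparations cannot be told apart.

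Narrow regions were present on every autosome at similar shares. The share ranged from 12.4% of the regions of chromosome 16 (100 of 807) to 15.7% of those of chromosome 13 (175 of 1114), and chromosome 11 held the most narrow regions, 260. The share with a neighbour within 10 kb ranged from 56.8% on chromosome 2 to 72.1% on chromosome 17. The median reads of narrow windows over both libraries lay below that of the other windows on 17 of 19 chromosomes, were equal on chromosome 5, and were higher on chromosome 15 (14.5 against 14). Levels of narrow and other regions varied together over the chromosomes, with Pearson's r of 0.867 between the medians of 19 chromosomes, which share the library and its depth.

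Chromosome 8 had the highest mean level of narrow regions, at 15.0 reads in the Emerald-positive and 20.1 reads in the Emerald-negative library, and the 2 most-read windows lie there. It also had the lowest pooled log2 ratio between libraries, -0.11 (-0.18 to -0.049), and this value was -0.11 (-0.19 to -0.035) without regions over 100 reads. The highest values were 0.12 on chromosome 5 (0.027 to 0.22) and 0.12 on chromosome 15 (0.0022 to 0.23). The intervals of these 3 chromosomes excluded 0 and those of the other 16 included it, with no adjustment for 19 values.

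Each chromosome was scaled so that the end of its last region was 1 and divided into 10 equal parts. The narrow share ranged from 12.3% of regions in part 10 to 15.7% in part 7. Mouse autosomes have their centromere at the start. The median reads of narrow windows over both libraries were 18 in part 1 and 12 in parts 9 and 10, and those of the other windows were 21 in part 1 and 14 in part 10. Medians of both sets were thus highest in the part nearest the centromere. The mean of the narrow windows was highest in part 2, at 24.3 reads, against 22.5 in part 1 and 21.5 in part 10. Part 2 holds the most-read narrow windows, a pair on chromosome 8 with 1127 and 1078 reads that shares reads. Its median was 15 reads, below the 18 of part 1, so the order of the means depends on few windows.

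The order of the table separated the frequent widths, and the sources used here do not explain this order. Of the 402 regions of 214 bp, 350 (87.1%) stood before the middle of the table. With the table in 5 equal parts, 225 of them (56.0%) stood in part 1 and 4 in part 5. Of the 698 regions of 228 bp, 216 (30.9%) stood before the middle, 19 (2.72%) in part 1 and 243 (34.8%) in part 5. Of the remaining narrow regions 50.0% stood before the middle, with 15.1% in part 1 and 17.6% in part 5. Narrow regions of part 1 averaged 12.2 reads in the Emerald-positive and 15.1 reads in the Emerald-negative library, above the 11.5 and 14.3 of the other regions there. These narrow means include the most-read window, with 477 and 650 reads. Median reads over both libraries in part 1 were 19 for narrow and 19 for other regions. In parts 2 to 5 narrow regions averaged less than the other regions in both libraries, for example 7.52 and 9.35 reads against 8.16 and 10.1 in part 2.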

How the data were processed

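The deposited table holds a signal per 200 bp bin for each library, scaled by the authors, in 50 bins per region per the file headers. The build is mm9 per the submitters' processing notes. The sources used here do not give the aligner, how duplicate reads were treated or how the regions were obtained, and start positions are printed as deposited. Per the labels' protocols, fixation lasted 10 min in 1% formaldehyde, fragments measured 150 to 450 bp after sonication, 3 µg of antibody was used, and libraries held 200 to 300 bp, or 200 to 500 bp in a second experiment whose libraries are not named there.

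Values divided by the library's step gave whole reads within a tolerance of 0.02 for 100% of values. Windows were taken as centred on midpoints because overlapping windows then correlated best (r of 0.965 over 276 pairs, against 0.523 with starts and 0.499 with ends). The pseudocount of 0.036 was the 5th percentile of nonzero region means. On the log2(value + pseudocount) scale, ratios of windows with few reads are understated. Intervals are exact Poisson (means), exact Clopper-Pearson (ratios between libraries and shares) or normal on the log scale (profile ratios). Those on ratios between libraries and on profile ratios were tested on simulated independent counts, which lack the shared reads of overlapping windows. Without molecular identifiers, reads cannot be equated with separate molecules.

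By rule, the text names the 5 narrow regions with most reads, the 5 highest and 5 lowest ratios above the median signal, the 5 highest centre-to-flank ratios at 20 reads or more, the narrowest 3 and 3 on each side of the limit. The narrow regions and these rules were chosen with earlier results of these data known. Alternatives changed the pseudocount, filter, bins, width limit, spacing and comparison set. Analyses without the frequent widths, without bins nearer to another region and by neighbour were added after seeing the data. Regions that were singled out beyond the rule were chosen after their values were seen. No sequence or gene was assigned, because the genome tables at hand describe GRCm38. Software used was scipy 1.17.1, numpy 2.4.6, matplotlib 3.10.9, pandas 2.3.3 and Python 3.11.15.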

Additional observations from a re-analysis of the deposited data

How the results depend on the processing

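No paired analysis was possible because there is only 1 Emerald-positive and 1 Emerald-negative library, and none was left out. Of 115 alternative values, 59 stayed near the reported value and 56 are given below. Near meant within the counting interval of the reported value. For counts of regions the limit was looser, so that 262 against 190 was still taken as near. Some values near 0 or 1 changed side within counting error: the pooled log2 ratio was -0.0039 with each library divided by its total and -0.0031 in the outer 40 bins, from 0.011. Pairs of values below give the Emerald-positive and then the Emerald-negative library, "level" is the mean of narrow over other regions, and "relative dip" is their centre-to-flank ratio over that of the other regions. Where fewer regions or bins are counted, counts fall for that reason; otherwise the cause was not tested.

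The pseudocount moved the counts of 2-fold differences, with 262 regions higher and 254 lower at the 1st percentile and 43 and 47 at the 25th. Without a filter there were 213 and 226. Above the lower quartile of signal there were 116 higher and 103 lower. With the central 10 bins only, the level in the Emerald-negative library was 0.903, the pooled log2 ratio 0.094 and the median 0.17, with 122 regions higher and 77 lower. With the outer 40 bins, 247 were higher and 250 lower. The region on chromosome 9 at 70220851 changed direction in the central bins, to a log2 ratio of 0.99 from -1.72, on 4 and 2 reads.

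The centre-to-flank ratios were 0.652 and 0.601 with the central 4 bins against bins beyond 1000 bp (relative dip 1.09 and 1.022), and 0.604 and 0.574 with trimmed means (relative dip 0.937 and 0.907). Without regions over 100 reads they were 0.642 and 0.605, and the level was 0.920 and 0.922. At a limit of 250 bp the level was 0.990 and 0.994, the ratios 0.720 and 0.672 and the relative dip 1.04 and 1.01, with 113 regions higher, 101 lower and 61.8% with a neighbour within 10 kb. At a limit of 400 bp the level was 0.918 and 0.919. Among regions at least 10 kb from any other, the level was 0.998 and 1.003, the ratios 0.767 and 0.698 and the relative dip 1.115 and 1.066, with 72 regions higher and 61 lower. Against regions above 300 and up to 400 bp only, narrow regions had the higher level, 1.037 and 1.042, and a relative dip of 1.073 and 1.025.

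Of the alternatives added after seeing the data, leaving out the 2 frequent widths gave a level of 0.850 and 0.851, ratios of 0.596 and 0.559 and a relative dip of 0.856 and 0.835. Among regions with a neighbour within 10 kb the level was 0.990 and 0.986 and the relative dip 0.883 and 0.864. Leaving out bins nearer to another midpoint moved no value beyond its counting error, with a relative dip of 1.02 and 0.992. The direction of the relative dip therefore depends on the bins, widths and spacing used. With 14 reads over both libraries at the median narrow region, depth limits statements on single regions to differences of several-fold.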

Other observations

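Most narrow regions were single, but some stood in runs. When narrow regions whose midpoints lay within 10 kb of the next narrow region were joined, 2354 (71.6%) stood alone, 848 formed 424 pairs and 87 formed 27 runs of 3 or more. The longest run held 5 narrow regions on chromosome 8 between 89411683 and 89427167, where 32 reads of the Emerald-positive and 36 of the Emerald-negative library were found when each position was counted once. A run of 4 narrow regions on chromosome 13 between 23635698 and 23655032, chosen after its values were seen, held 3 reads of the Emerald-positive and 19 of the Emerald-negative library, a scaled ratio of 0.196-fold with a counting interval of 0.0372 to 0.667. The other 3 runs of 4 held 8 against 21 reads on chromosome 4 (130179950 to 130193827), 7 against 3 on chromosome 7 (4965022 to 4972616) and 24 against 20 on chromosome 7 (25053830 to 25065952), and their intervals included 1.

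The spacing of the table had a sharp lower limit. Among 23320 gaps between the end of an autosomal region and the start of the next, none was under 500 bp, 7 were exactly 500 bp and 1299 were at least 500 and under 1000 bp. A width of 500 bp was also the second most frequent width of the table, with 556 autosomal regions, after 228 bp with 698 and before 214 bp with 402, while the fourth, 626 bp, had 69. Regions of 500 bp averaged 12.0 reads in the Emerald-positive and 14.8 reads in the Emerald-negative library, more than regions of 228 bp. Their centre-to-flank ratios, 0.774 and 0.700, were close to the 0.755 and 0.716 of the 228 bp regions. Within 200 bp of the midpoint their signal over that beyond 1 kb was 0.764 and 0.680, below the 0.950 and 0.860 of the 228 bp regions. Without regions over 100 reads these values were 0.712 (0.610 to 0.830) and 0.648 (0.561 to 0.749) at 500 bp. At 228 bp they were then 0.803 (0.696 to 0.928) and 0.763 (0.668 to 0.871), so the intervals overlapped. The 1211 regions of other widths above 400 and up to 650 bp stood at 1.00 and 0.938. With this limit on reads they stood at 0.693 and 0.708. A high central value was thus not particular to 228 bp.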
